A study of Homo sapiens with 4 samples.

Results

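The genes described here are 10 negative regulators and transcriptional targets of mitogen-activated protein (MAP) kinase signalling: the MAP kinase phosphatase genes DUSP1, DUSP4, DUSP5, DUSP6 and DUSP10, the Sprouty-family genes SPRY2, SPRY4 and SPRED1, and the ETS transcription factor genes ETV4 and ETV5. They were taken by name, as every probe set on the array whose platform annotation gives exactly 1 gene symbol equal to a member. The members were chosen with earlier results of these data known. Their counts beside the shares of all genes therefore describe these genes and are no test. That gave 24 of 54613 probe sets that were not controls. A filter on low signal was passed by 23 of the 24, and all 10 members were among the 14043 genes tested.

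MAP kinases relay signals through chains of kinases: ERK mainly from growth factor receptors, p38 and JNK mainly from stress. Each chain induces its own brakes. Dual-specificity phosphatases (DUSPs) remove the activating phosphates from MAP kinases, with differing preferences for ERK, p38 and JNK, while Sprouty and SPRED proteins act higher up, between the receptors and RAF. DUSP6, SPRY2, SPRY4, ETV4 and ETV5 are widely used as transcript readouts of ERK output, whereas DUSP1 and DUSP10 are also induced by cellular stress.

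The cells were KYSE410, a human cell line established from an esophageal squamous cell carcinoma and grown in RPMI medium with fetal bovine serum and antibiotics. One group of 2 arrays came from cells given 20 nM YM155 for 6 h, and the other group of 2 arrays from cells left untreated. YM155 is an imidazolium compound first described as a suppressor of survivin expression. Total RNA was hybridised to Affymetrix 3' expression arrays, and the labels name no vehicle, culture or day for either group. Labels conflict on the drug: the treatment protocol and the end of the design text name cisplatin, while the samples' treatment labels and the series title name YM155, and the groups here follow the sample labels. The YM155 titles also carry the codes B1 and B2, which stay unexplained. The transcripts alone were measured, and neither kinase activity nor protein was.

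All values below are log2 of the deposited intensity, and a difference is YM155 minus untreated on that scale, so 1 means 2-fold. Intensities of different probe sets are not comparable as levels. In bulk RNA, fewer cells expressing a gene and less of its RNA per cell cannot be told apart. Squamous markers with a probe set of their own (KRT5, KRT14, DSG3 and SFN, 4 of 6 listed) all passed the filter. KRT5 read 11.19 and 11.19 on the YM155 arrays and 10.86 and 10.74 on the untreated arrays. In the same order, KRT14 read 9.09 and 9.26 against 8.38 and 8.99. DSG3 read 8.27 and 8.11 against 7.98 and 7.17, and SFN 13.15 and 13.19 against 12.25 and 12.74. Of 15 markers of fibroblasts, leukocytes, endothelium and glandular epithelium, 6 passed, the brightest at the 72.9th percentile of all probe sets. Only 0.107% of genes differed by 2-fold or more between the YM155 arrays. Between the untreated arrays that share was 4.39%, so each member's difference is also given against each untreated array by itself.

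The members went in both directions: DUSP1, DUSP10, DUSP4, SPRY2 and SPRED1 had higher intensities on the YM155 arrays, and DUSP6 and ETV5 had lower ones. SPRY4 and ETV4 lay among the untreated values, and DUSP5, with a difference of 1.49, overlapped them. Of the ERK readouts named above, SPRY2 was higher, DUSP6 and ETV5 were lower, and SPRY4 and ETV4 overlapped. No member passed adjustment over all genes. With each gene represented by its brightest probe set, both YM155 arrays lay above both untreated arrays for 5 of the 10 members (DUSP1, DUSP4, DUSP10, SPRY2 and SPRED1), against 19.3% of all genes. Both lay below for 2 (DUSP6 and ETV5), against 25.6% of all genes. At an unadjusted limma p under 0.05, 4 members were higher, where 5.23% of all genes were, and 1 was lower, where 7.48% were. After Benjamini-Hochberg adjustment over 14043 genes, 0 of 10 members passed 0.05 in limma. Counted over all 23 member probe sets that passed the filter, 9 were higher without overlap (19.4% of all probe sets) and 7 lower (23.9%). Those counts come from the same members as the gene counts, the 7 from DUSP6 and ETV5 alone. Probe sets of the same gene are repeat readings and not independent. In the gene fit no other gene passed either (0% in each direction), against 734 genes higher and 1051 lower at an unadjusted p under 0.05. The adjusted p of the members lay between 0.197 and 0.893. An exact permutation test of 2 arrays against 2 cannot go below p = 0.333 (two-sided).

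**Figure D1:**
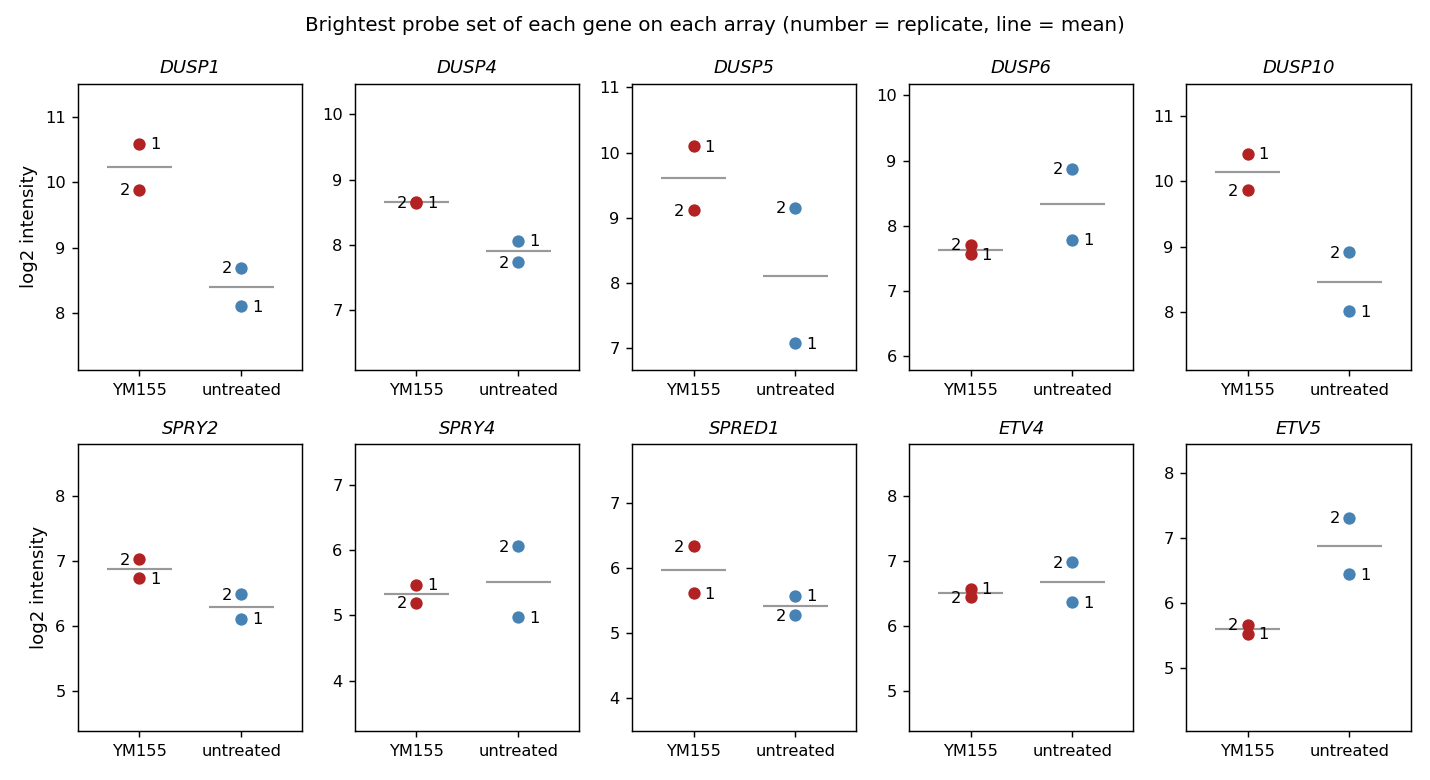
Log2 intensity (y axis) of each member's brightest probe set on the 2 YM155 arrays (red) and the 2 untreated arrays (blue), numbered by replicate, with the group mean as a line; all panels span the same number of log2 units. DUSP1, DUSP4, DUSP10, SPRY2 and SPRED1 have both YM155 points above both untreated points, DUSP6 and ETV5 have both below, and the untreated points of DUSP5 are 2.09 log2 apart.

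DUSP1 encodes a nuclear phosphatase that acts on p38, JNK and ERK and is itself an early response gene. Its brightest probe set (201041_s_at) was at 10.59 and 9.89 on the YM155 arrays, against 8.10 and 8.69 on the untreated arrays. The YM155 arrays were the 2 highest, with a gap of more than 1 log2 to the nearer untreated array. The difference was 1.85 ± 0.32 (SE, n = 2 arrays per group), or 3.60-fold, with an unadjusted p of 0.00279 and an adjusted p of 0.197 in limma, and it ranked as the 9th highest of 14043 genes. It amounted to 2.14 against untreated replicate 1 and 1.55 against untreated replicate 2. The other DUSP1 probe sets were far dimmer and did not show it. The one ending in _x_at (201044_x_at) read 5.04 and 4.48 on YM155 arrays and 4.44 and 4.69 on untreated arrays, a difference of 0.20 ± 0.24 (SE). For the third (226578_s_at) the values were 4.26 and 4.08 on YM155 arrays and 4.07 and 4.36 on untreated arrays, and the difference was −0.05 ± 0.17 (SE). Averaged over the 3 probe sets, the DUSP1 difference was 0.67 (adjusted p = 0.338 in limma).

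DUSP10, whose product prefers p38 and JNK over ERK, gave nearly the same pattern. Its brightest probe set (221563_at) was at 10.42 and 9.86 on YM155 arrays, against 8.00 and 8.91 on untreated arrays. The groups did not overlap, and the untreated arrays were 0.91 apart. The difference was 1.68 ± 0.37 (SE), or 3.21-fold (unadjusted p = 0.00702, adjusted p = 0.237 in limma), the 15th highest of all genes. Against untreated replicates 1 and 2 it was 2.14 and 1.23. The second DUSP10 probe set (215501_s_at) read 9.30 and 8.72 on YM155 arrays and 6.64 and 8.55 on untreated arrays, again without overlap, at 1.42 ± 0.66 (SE). Against untreated replicate 2 alone this probe set was 0.47 higher.

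DUSP4 and DUSP5 encode nuclear phosphatases that are classical transcriptional targets of ERK, DUSP5 acting on ERK itself. DUSP4 was at 8.65 and 8.64 on YM155 arrays, against 8.06 and 7.73 on untreated arrays (204014_at). Among the members it had the closest YM155 arrays, and the groups did not overlap. The difference was 0.75 ± 0.16 (SE), or 1.69-fold (unadjusted p = 0.00644, adjusted p = 0.233 in limma). The other probe sets of DUSP4 went the same way without overlap, at 0.93 ± 0.23 for 226034_at and 0.53 ± 0.23 for 204015_s_at (SE). DUSP4 differed from most members in having untreated replicate 1 above replicate 2 in its 2 brightest probe sets, so its difference was 0.59 against untreated replicate 1 and 0.92 against replicate 2.

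For DUSP5 the untreated arrays set the result. Its single probe set (209457_at) read 10.09 and 9.12 on YM155 arrays, against 7.07 and 9.16 on untreated arrays. The YM155 replicate 2 value lay just under untreated replicate 2, so the groups overlapped. The difference of 1.49 ± 0.76 (SE, 95% interval −0.50 to 3.49, adjusted p = 0.505 in limma) was 2.54 against untreated replicate 1 and 0.45 against untreated replicate 2. In fold terms those are 5.80 and 1.37.

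DUSP6 encodes the cytoplasmic phosphatase that acts almost only on ERK, and its transcript is among the best known readouts of ERK activity. Unlike the other DUSP members, its brightest probe set was lower after YM155: 7.56 and 7.71 on YM155 arrays, against 7.78 and 8.88 on untreated arrays (208891_at). The groups did not overlap, but untreated replicate 1 was only 0.08 above the nearer YM155 array. The difference was −0.70 ± 0.38 (SE, 95% interval −1.69 to 0.30, adjusted p = 0.53 in limma), made up of −0.15 against untreated replicate 1 and −1.24 against untreated replicate 2. The other DUSP6 probe sets had the same split: 208893_s_at gave −0.46 and −1.73 against untreated replicates 1 and 2, and 208892_s_at gave 0.15 and −1.26. On the last, the YM155 values of 6.74 and 6.94 lay between the untreated values of 6.69 and 8.10. Thus 3 of 3 DUSP6 probe sets were lower than untreated replicate 2 by over 1 log2, and against untreated replicate 1 the signs were mixed.

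**Figure D2:**
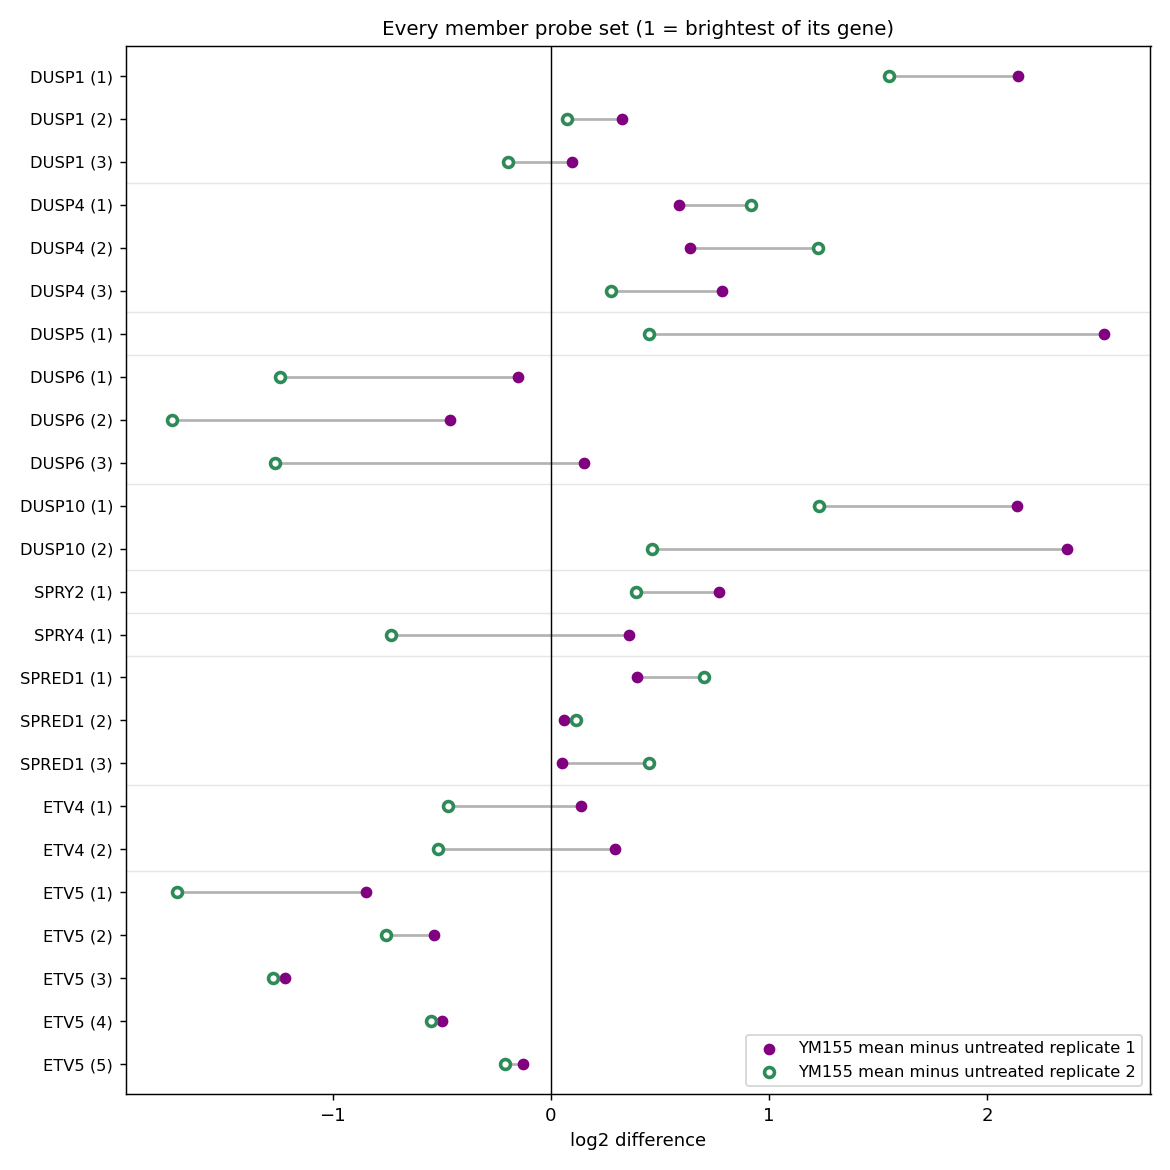
Difference in log2 intensity (x axis) of the YM155 mean from untreated replicate 1 (filled) and from untreated replicate 2 (open), for each of the 24 member probe sets, numbered within a gene from the brightest. Both points lie on the same side of 0 for every probe set of DUSP4, DUSP5, DUSP10, SPRY2, SPRED1 and ETV5, whereas SPRY4, ETV4, 1 probe set of DUSP1 and 1 of DUSP6 have a point on each side.

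The sequences just upstream of 3 of these genes are shown because DUSP1 and DUSP10 gave the highest differences with the most alike patterns, and DUSP6 the opposite sign. They are RefSeq windows from 250 bases before to 50 bases after an annotated start (GRCh38.p14), available for 6 of the 10 members, all 3 on the minus strand and printed 5′ to 3′ along the gene. The reference held 2 windows for DUSP10 and 3 for SPRY2, and 1 per gene was used. Capitals mark TGACNTCA in DUSP1 and DUSP10, and in DUSP6 the reverse complement of AGGAAG. The windows are chr5:172771146-172771445 (DUSP1), chr1:221742040-221742339 (DUSP10) and chr12:89352452-89352751 (DUSP6).
DUSP1: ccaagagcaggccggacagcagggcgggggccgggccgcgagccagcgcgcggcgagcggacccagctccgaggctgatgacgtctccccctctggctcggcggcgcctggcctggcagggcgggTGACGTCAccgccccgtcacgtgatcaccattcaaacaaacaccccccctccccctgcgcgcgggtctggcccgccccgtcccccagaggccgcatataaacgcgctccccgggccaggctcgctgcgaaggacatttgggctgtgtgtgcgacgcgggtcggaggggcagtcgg
DUSP10: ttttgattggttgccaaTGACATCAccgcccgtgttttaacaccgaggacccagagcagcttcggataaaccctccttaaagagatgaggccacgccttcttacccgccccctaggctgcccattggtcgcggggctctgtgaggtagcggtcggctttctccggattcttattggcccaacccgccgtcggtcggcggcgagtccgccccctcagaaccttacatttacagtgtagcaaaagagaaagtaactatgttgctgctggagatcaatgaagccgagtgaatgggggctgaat
DUSP6: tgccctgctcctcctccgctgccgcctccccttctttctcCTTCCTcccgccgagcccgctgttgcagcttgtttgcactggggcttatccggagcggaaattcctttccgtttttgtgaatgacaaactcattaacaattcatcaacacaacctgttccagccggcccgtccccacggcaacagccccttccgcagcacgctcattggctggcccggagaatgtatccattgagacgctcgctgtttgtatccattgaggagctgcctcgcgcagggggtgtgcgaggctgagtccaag

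Both strands were searched. The cyclic AMP response element TGACGTCA starts at base −125 of DUSP1 and was in 1 of the 6 member windows, against 1.85% of 35116 windows. TGACNTCA, which includes it and was chosen after the sequences were seen, was also at −233 of DUSP10, and 7.72% of all windows hold it. AGGAAG, a core bound by ETS factors, was at −210 of DUSP6 and also in the windows of SPRY2 and SPRED1, and 33.6% of all windows hold it. Another ETS core, CCGGAA, was in the SPRY2 window (17.2% of all). The AP-1 motif TGANTCA (7.71% of all) and the CArG box of serum response factor (1.29% of all) were in 0 of the 6 windows. These matches are letters in a window and no measure of binding.

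SPRY2 and SPRY4 encode Sprouty proteins, which are induced by ERK and restrain receptor tyrosine kinase signalling. SPRY2 read 6.73 and 7.02 on YM155 arrays, against 6.11 and 6.49 on untreated arrays (204011_at). Its groups did not overlap, by 0.24 log2 at the nearest. The difference was 0.58 ± 0.20 (SE), or 1.49-fold (unadjusted p = 0.035, adjusted p = 0.35 in limma), at 0.77 and 0.39 against untreated replicates 1 and 2. SPRY4 read 5.47 and 5.19 on YM155 arrays, against 4.97 and 6.06 on untreated arrays (221489_s_at). Both YM155 values lay between the untreated ones, so the sign depended on the array chosen: 0.36 against untreated replicate 1 and −0.73 against replicate 2. The overall value was −0.19 ± 0.39 (SE, 95% interval −1.20 to 0.83, adjusted p = 0.893 in limma).

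SPRED1, a Sprouty-related protein that brings neurofibromin to RAS, read 5.61 and 6.33 on YM155 arrays, against 5.57 and 5.27 on untreated arrays (226837_at). The groups did not overlap, but YM155 replicate 1 was only 0.04 above untreated replicate 1. The difference was 0.55 ± 0.28 (SE, 95% interval −0.19 to 1.29, adjusted p = 0.507 in limma), and it dropped to 0.19 without YM155 replicate 2. Its dimmer probe sets showed less: 235074_at gave 0.09 ± 0.13 (SE). The member probe set that failed the filter, 244439_at of SPRED1, read 2.98 and 3.16 on YM155 arrays and 3.02 and 2.62 on untreated arrays, under the limit of 3.32.

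ETV4 and ETV5 encode ETS factors of the PEA3 group, which ERK signalling induces and which in turn drive growth factor programmes. ETV5 had the lowest difference of the members, the 65th lowest of 14043 genes. Its brightest probe set (203349_s_at) read 5.53 and 5.67 on YM155 arrays, against 6.45 and 7.31 on untreated arrays. Here both YM155 arrays were well below both untreated arrays. The difference was −1.28 ± 0.31 (SE), so that the untreated mean was 2.43-fold the YM155 mean (unadjusted p = 0.0106, adjusted p = 0.254 in limma), at −0.85 and −1.71 against untreated replicates 1 and 2. On all 5 ETV5 probe sets the YM155 values were below the untreated ones without overlap. The most even of the larger ones was 230102_at, at 4.29 and 4.57 on YM155 arrays and 5.65 and 5.70 on untreated arrays. It gave −1.25 ± 0.16 (SE), which was −1.22 and −1.27 against untreated replicates 1 and 2 (unadjusted p = 0.000703, adjusted p = 0.228 over probe sets in limma). The remaining 3 probe sets gave −0.65, −0.52 and −0.17, the last being 231083_at, whose values of 3.25 to 3.48 were at the filter's limit.

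ETV4 did not share this. It read 6.57 and 6.44 on YM155 arrays, against 6.37 and 6.98 on untreated arrays (211603_s_at). The YM155 values lay between the untreated ones. The difference was −0.16 ± 0.24 (SE, 95% interval −0.79 to 0.46, adjusted p = 0.828 in limma), with 0.14 against untreated replicate 1 and −0.47 against replicate 2. Its second probe set (1554576_a_at) gave −0.11 ± 0.32 (SE), and that set's YM155 values of 5.96 and 5.57 also lay between the untreated values of 5.47 and 6.28.

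**Figure D3:**
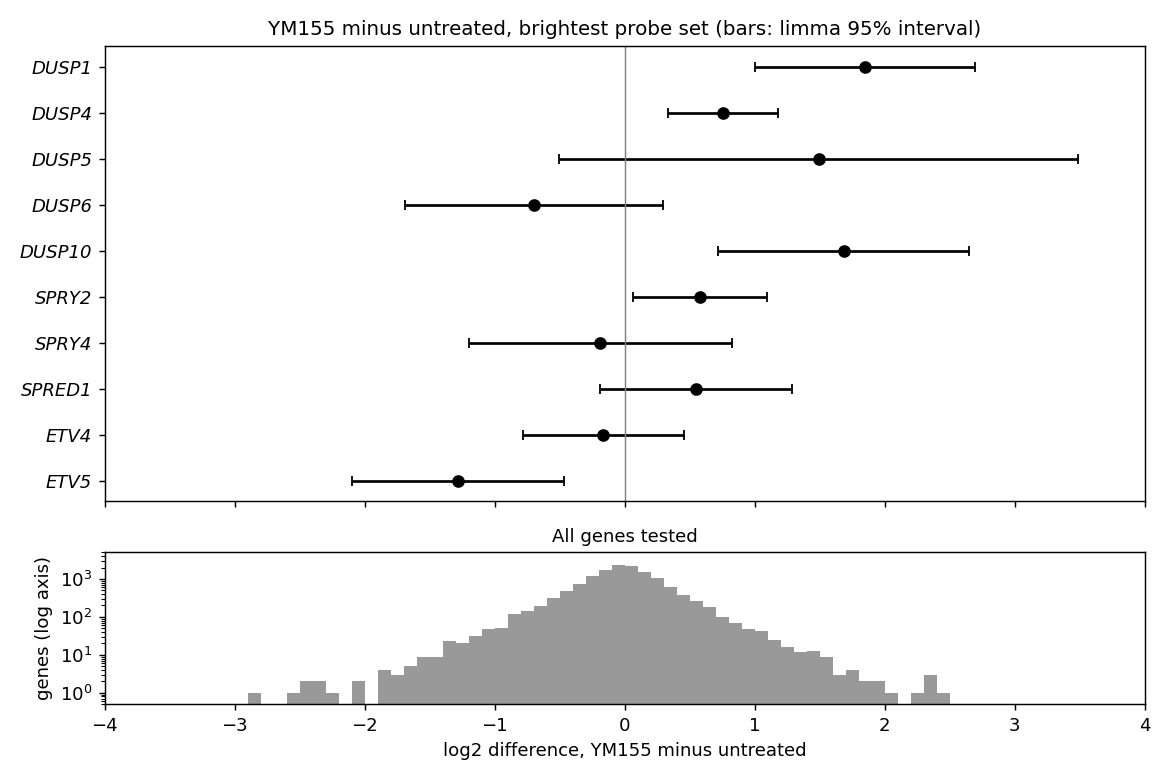
Upper panel: difference in log2 intensity (x axis), YM155 minus untreated, of each member's brightest probe set with its 95% interval from limma. Lower panel: number of genes (log axis) by the same difference for all 14043 genes; DUSP1 (1.85), DUSP10 (1.68) and DUSP5 (1.49) lie in the right tail and ETV5 (−1.28) in the left, and the intervals of DUSP5, DUSP6, SPRY4, SPRED1 and ETV4 cross 0.

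The untreated arrays differed from each other along much of this gene set. Replicate 2 was above replicate 1 for 8 of 10 members, all but DUSP4 and SPRED1, against 44.9% of all genes. It was at least 2-fold above for 3 of them (DUSP5 by 2.09, DUSP6 by 1.09 and SPRY4 by 1.09), against 1.5% of all genes. The median absolute difference over the 10 members was 0.29 within the YM155 group and 0.74 within the untreated group, while over all genes it was 0.12 within YM155 and 0.23 within untreated. The choice of untreated array therefore decided several members. Against untreated replicate 1, the YM155 mean was at least 2-fold higher for DUSP1, DUSP5 and DUSP10 (3 of 10, against 1.08% of all genes) and at least 2-fold lower for 0 (1.15% of all genes). Against untreated replicate 2, it was at least 2-fold higher for DUSP1 and DUSP10 (2 of 10, against 2.41% of all genes) and at least 2-fold lower for DUSP6 and ETV5 (2 of 10, against 2.4%). At a limit of 1.5-fold, DUSP1, DUSP4, DUSP5, DUSP10 and SPRY2 were higher than untreated replicate 1 (5 of 10, against 3.57% of all genes), and ETV5 was lower (1 of 10, against 5.87%). At that limit, DUSP1, DUSP4, DUSP10 and SPRED1 were higher than untreated replicate 2 (4 of 10, against 8.87% of all genes), and DUSP6, SPRY4 and ETV5 were lower (3 of 10, against 7.88%). Both YM155 arrays lay above untreated replicate 1 for 8 of 10 members, against 31.6% of all genes, and below untreated replicate 2 for 4, against 40.1%. The readings against the 2 untreated arrays share the YM155 arrays.

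Without untreated replicate 1, limma called DUSP4 higher (0.92) and DUSP6 (−1.24) and ETV5 (−1.71) lower, each at an adjusted p of 0.0407. That fit called 4.3% of all genes higher and 3.71% lower, and it takes the lone untreated array to vary like the YM155 arrays. DUSP1 (1.55, adjusted p = 0.0798) and DUSP10 (1.23, adjusted p = 0.0832) did not pass in it, their YM155 arrays being 0.70 and 0.56 apart. Leaving out any of the other 3 arrays left 0 members called.

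One of the array's controls for RNA integrity varied between arrays within both groups. The 3' minus 5' difference of the ACTB control probe sets was 2.10 and 2.95 log2 on YM155 replicates 1 and 2, and 2.72 and 2.18 on untreated replicates 1 and 2. The groups overlapped on it. The same difference of the GAPDH control was 0.03 and 0.21 on YM155 replicates 1 and 2, and 0.04 on both untreated arrays, so it did not show the gap within the untreated group. DUSP1, DUSP5, DUSP10, SPRY4 and ETV4 (5 of 10, against 22.2% of all genes) were higher within each group on the array with the lower ACTB value, and SPRED1 alone was lower there (against 26.8% of all genes). The part of RNA integrity in these differences was not tested.

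The genes with the most similar profiles were sought by Euclidean distance between log2 values centred over the 4 arrays. Nearest to DUSP1 were DUSP10 itself (0.30), NR4A3, an orphan nuclear receptor and early response gene (0.31), and SIK1, a salt-inducible kinase (0.32). SIK1 read 9.68 and 9.26 on YM155 arrays and 7.39 and 8.23 on untreated arrays. Nearest to ETV5 were PSRC1, a spindle-associated protein (0.11), ZBTB10, a zinc finger repressor (0.11), and ELL3, an elongation factor (0.15). PSRC1 read 7.17 and 7.24 on YM155 arrays and 8.11 and 9.03 on untreated arrays. Over 4 arrays such likeness is a description only.

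The kinases and adaptors of the ERK cascade itself stood close to all other genes. Of 22 listed, 15 were tested, with 7 positive and 8 negative differences and a median of −0.03, where the median of all genes was −0.02. At an unadjusted p under 0.05, 1 was higher and 0 lower, against 5.23% and 7.48% of all genes. That one was RASA2, which encodes a RAS GTPase-activating protein: it read 7.37 and 7.82 on YM155 arrays and 6.59 and 6.74 on untreated arrays, a difference of 0.93 ± 0.20 (SE, adjusted p = 0.232 in limma). The scaffold gene KSR1 (−0.38), the ERK kinase gene MAP2K1 (−0.32) and the RAS activator gene SOS2 (−0.32) followed in size. MAP2K1 overlapped between groups and stood at 0.02 and −0.65 against untreated replicates 1 and 2. SOS2 stood at −0.53 and −0.10 against them, and 3 other KSR1 probe sets lay between −0.10 and 0.09.

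Relatives of the members gave 12 positive and 6 negative differences among 18 tested of 20 listed, with a median of 0.12. In this list, 2 genes were higher and 0 lower at an unadjusted p under 0.05, against 5.23% and 7.48% of all genes. DUSP7, a cytoplasmic ERK phosphatase close to DUSP6, went the opposite way to it: DUSP7 read 7.95 and 8.30 on YM155 arrays and 6.94 and 7.09 on untreated arrays. The DUSP7 difference was 1.11 ± 0.17 (SE, adjusted p = 0.184 in limma), at 1.18 and 1.04 against untreated replicates 1 and 2, and its dimmer probe set gave 0.44 with overlap. ETS1, a founding ETS factor, stood 0.93 ± 0.24 (SE) higher, and its other probe sets gave 1.04 and 0.37 without overlap. For the ETS repressor gene ETV6 (0.58) the values against untreated replicates 1 and 2 were −0.09 and 1.25, and its probe sets had both signs. ELK3, a partner of serum response factor, was 0.57 higher, at 0.89 and 0.26 against untreated replicates 1 and 2. Its dimmer probe set gave 0.11 with overlap, at 0.43 and −0.21 against them.

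Some other genes of ERK output, too, had values that depended on the untreated array. Of 20 tested among 22 listed, which included 3 genes of the RSK kinases and some regulators of the pathway, 12 were positive and 8 negative. Their median was 0.23, or 0.50 against untreated replicate 1 and 0.07 against untreated replicate 2. At an unadjusted p under 0.05, 6 were higher and 3 lower, against 5.23% and 7.48% of all genes. An RSK gene was among the lower, so these counts are not of ERK output alone. KCNN4, 1 of the 3 lower, did not depend on the untreated array, at −0.98 against each. Its difference was −0.98 ± 0.12 (SE, adjusted p = 0.163 in limma). MYC, the growth-promoting transcription factor gene, stood 1.38 ± 0.34 (SE) higher and SPSB1, an adaptor of a ubiquitin ligase, 1.02 ± 0.21 (SE), both without overlap. Against untreated replicates 1 and 2, MYC was at 1.80 and 0.96 and SPSB1 at 1.29 and 0.75. The AP-1 genes FOS and FOSL1 followed untreated replicate 2: FOS read 6.61 and 6.27 on YM155 arrays and 3.73 and 6.78 on untreated arrays, and FOSL1 read 10.34 and 10.32 on YM155 arrays and 8.17 and 10.30 on untreated arrays. Against untreated replicate 2 alone they were at −0.34 and 0.03.

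The p38 and JNK list was centred near 0, with 11 positive and 10 negative differences among 21 tested of 24 listed and a median of 0.02. At an unadjusted p under 0.05, 2 of these were higher and 1 lower, against 5.23% and 7.48% of all genes. The AP-1 gene JUN read 11.18 and 11.06 on YM155 arrays and 9.83 and 10.21 on untreated arrays. Its difference was 1.10 ± 0.18 (SE, adjusted p = 0.185 in limma), and its other 3 probe sets gave 1.14 to 1.49 without overlap. MAP2K4, a kinase that activates JNK, stood 0.66 ± 0.13 (SE) higher, but 0.34 with overlap in its second probe set. ATF2, a target of p38 and JNK, stood at −0.60 ± 0.15 (SE), and GADD45A, a stress sensor upstream of these kinases, at 0.54 ± 0.30 with overlap, or 0.89 and 0.20 against untreated replicates 1 and 2. In all 4 lists, 0 genes passed adjustment over all genes in limma, which called 0 of 14043.

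**Figure D4:**
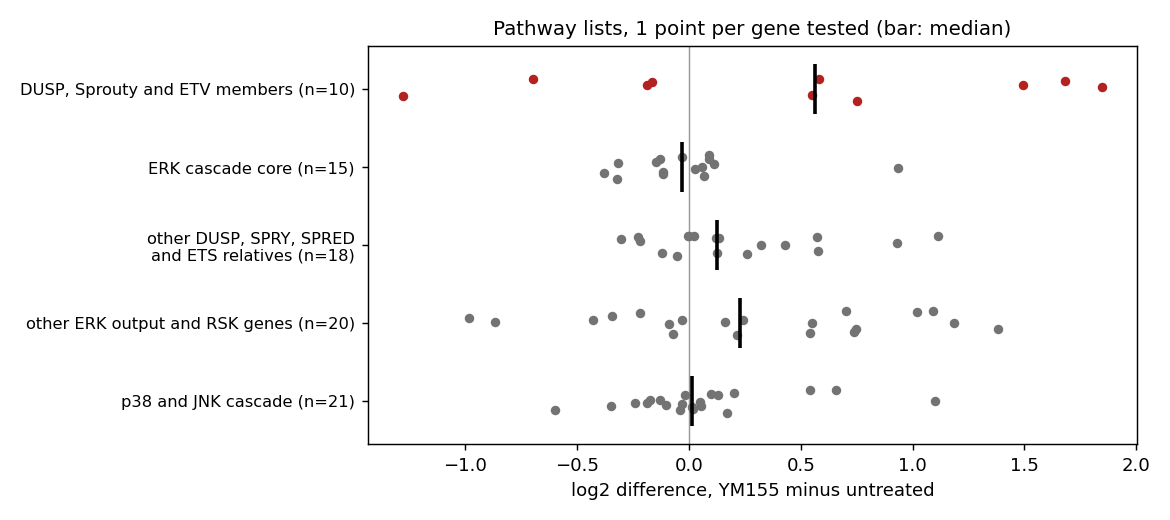
Difference in log2 intensity (x axis), YM155 minus untreated, for the 10 members (red) and the tested genes of 4 pathway lists (grey), 1 point per gene, with the median as a black bar. The members span −1.28 to 1.85, and the medians of the ERK cascade core (−0.03) and of the p38 and JNK cascade (0.02) lie near 0.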

How the data were processed

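The authors deposited 1 intensity per probe set, made with RMA per the submitters' processing notes, with no version or settings stated. The values, 2.42 to 15214, are linear, and their log2 was taken. RMA sets arrays to a common distribution, so a shift shared by all genes is not measured. Control probe sets (62 of 54675) were left out, as were probe sets under the 40th percentile of mean log2, which kept 32768. Genes were named from the platform annotation and represented by their probe set of highest mean. Groups were compared with limma 3.58.1 in R 4.3.3 (lmFit, eBayes, two-sided, group only), over 14043 genes and again over 32768 probe sets, with Benjamini-Hochberg adjustment and a threshold of 0.05. The SE and the 95% interval are limma's. On simulated data, limma called 0 of 100 genes with a true change of 1 log2 and 67 of 100 with 2 log2. There were 2 false calls. The simulation gave both groups of a gene the same variance. In the data, the variance over genes of replicate 1 minus replicate 2 was 0.0413 for YM155 and 0.212 for untreated. The simulated counts may therefore not hold for these data. Precision is limited by the number of arrays, with 2 residual degrees of freedom per gene. No separate cultures are named, so p-values reflect only how far these arrays differ, and part of that may be technical. Same-numbered arrays did not deviate together (correlation of 0.000362 across genes), so replicate numbers were not used as pairs. The members and lists were chosen with earlier results of these data known. Named genes are all members, up to 4 tested genes of each list by absolute difference, and the 3 nearest profiles of the members with the highest and lowest difference. KCNN4, the next in its list, was added as a lower gene of ERK output. Alternatives covered the filter, the probe set rule, the normalization, the moderation, the replicate number as a block and leaving out each array.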

Additional observations from a re-analysis of the deposited data

How the results depend on the processing

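Of 118 alternative values of the 10 members' differences, 113 kept their sign and their side of the threshold. Keeping the side says little, because 0 of all genes passed in each fit except that without untreated replicate 1. Without that array DUSP4, DUSP6 and ETV5 changed side, as given above. Sizes also moved among the 113. DUSP1 fell from 1.85 to 0.67 averaged over its probe sets, and DUSP5 from 1.49 to 0.45 without untreated replicate 1. DUSP6 went from −0.70 to −0.15 without untreated replicate 2. Without untreated replicate 2, SPRY4 (0.36) and ETV4 (0.14) changed sign, and leaving out the arrays 1 by 1 they ran from −0.73 to 0.36 and from −0.47 to 0.14. DUSP1 and SPRY4 have no probe set free of the _s_at and _x_at suffixes and gave no value under that rule. Under that rule DUSP4, DUSP10, SPRY2 and SPRED1 stayed higher without overlap on the same probe sets. DUSP1 left that group only because it had no value. Leaving out the arrays 1 by 1, the members called ran from 0 to 1 higher and 0 to 2 lower, and all genes called from 0 to 604 higher and 0 to 521 lower, the highest of each without untreated replicate 1. Members without overlap ran from 5 to 8 higher, the 8 without untreated replicate 2 (against 31.6% of all genes). They ran from 2 to 4 lower, the 4 without untreated replicate 1 (against 40.1%). At a fold limit of 1.5, 5 and 4 members were higher than untreated replicates 1 and 2, and 1 and 3 were lower, as given above beside their shares of all genes. With the replicate number as a block, 0 genes and 0 members were called, and the smallest member p (unadjusted) was 0.00684, for ETV5 (adjusted p = 0.407); the block changed no call. Over the alternatives the adjusted p of DUSP1 ran from 0.0798 to 1. The cause of these changes was not tested.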
